A study of Mus musculus with 4 samples.

Results

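Collagen genes were taken as the rows of the deposited table of raw gene counts whose gene name is Col, a number, the letter a and a number. This rule gave 44 genes of 51826 rows. By the type of collagen they encode, 11 were fibrillar, 6 were chains of type IV, the basement membrane collagen, 9 were FACIT collagens and 18 belonged to other types. They were compared in mouse cells in culture. Dermal papilla cells (DPCs) are the mesenchymal cells inside the hair bulb, and dermal sheath cells (DSCs) those of the connective tissue around the follicle.

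The 4 groups were low-passage DPCs and high-passage DPCs, at passage 3 and passage 9, and DSCs at the same passages. All cells came from whisker follicles of mice aged 5 to 6 weeks, which the study describes as EGFP-transgenic on the C57BL/6J background and the labels as genotype WT. Follicles were digested with collagenase, with dispase added for the DSCs, and the cells were grown in serum-containing medium. No treatment other than passage is given for any group. Each group was sequenced as 1 library, so no difference between groups has a replicate check, and differences of passage cannot be told apart from differences in when a culture was harvested or its library made.

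Collagens are triple-helical proteins of the extracellular matrix. Fibrillar collagens build the banded fibres that give dermis and tendon their strength. Type IV forms the sheet-like network of basement membranes. FACIT collagens, which have interrupted triple helices, sit on the surface of fibrils and link them to their surroundings. The remaining types form beaded filaments, anchoring fibrils, hexagonal networks or span the cell membrane. In the hair follicle the dermal sheath lays down a collagen-rich coat, and a basement membrane separates the follicle epithelium from papilla and sheath.

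The total count of a library was between 34981284 and 47604059. Defining markers of keratinocytes (Krt5, Krt14), melanocytes (Tyr, Dct) and skeletal muscle (Myod1) were at 0 counts in all 4 libraries, while Pdgfra, Pdgfrb and Vim were present in all of them. Other genes of the keratinocyte and melanocyte lists had reads, among them Dsp, a desmosome gene, with 10 and 184 counts in DPCs and 84 and 2307 in DSCs at passages 3 and 9, and Mitf with 394 to 980 counts per library. The 10 keratinocyte markers summed to 2.34 and 6.44 CPM (counts per 1e6, scaled with the TMM method) in DPCs and to 4.11 and 52.7 in DSCs. The summed level of the 10 mesenchymal markers was 12960 CPM in DPCs at passage 3 and 6039 at passage 9, against 11910 and 11410 in DSCs. Its members differed, since in DPCs Acta2 had 7120 and 1870 CPM and Tagln 1890 and 602, while Pdgfra had 304 and 811, and in DSCs Dcn had 86.8 and 1960. Alpl, a marker of the dermal papilla in skin, had 6 to 23 counts per library and did not set the DPC libraries apart. In bulk RNA, fewer cells that express a gene and less RNA per cell cannot be told apart.

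Collagen genes took a smaller share of the counts in high-passage DPCs than in the other libraries. In DPCs the share was 3.951% at passage 3 and 2.444% at passage 9, and in DSCs it was 4.58% and 4.459%. The exact Clopper-Pearson intervals of these shares, which cover counting error only, were at most 0.0132 percentage points wide. Fibrillar genes made up most of the difference, since they took 2.068% of the counts in low-passage DPCs and 0.6498% in high-passage DPCs, against 2.872% and 2.28% in DSCs. Type IV genes took 0.7573% and 0.315% in DPCs, and 0.4712% and 0.528% in DSCs. FACIT genes went the other way, from 0.472% to 1.16% in DPCs and from 0.7142% to 1.302% in DSCs, and nearly all of these counts were Col12a1.

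**Figure D1:**
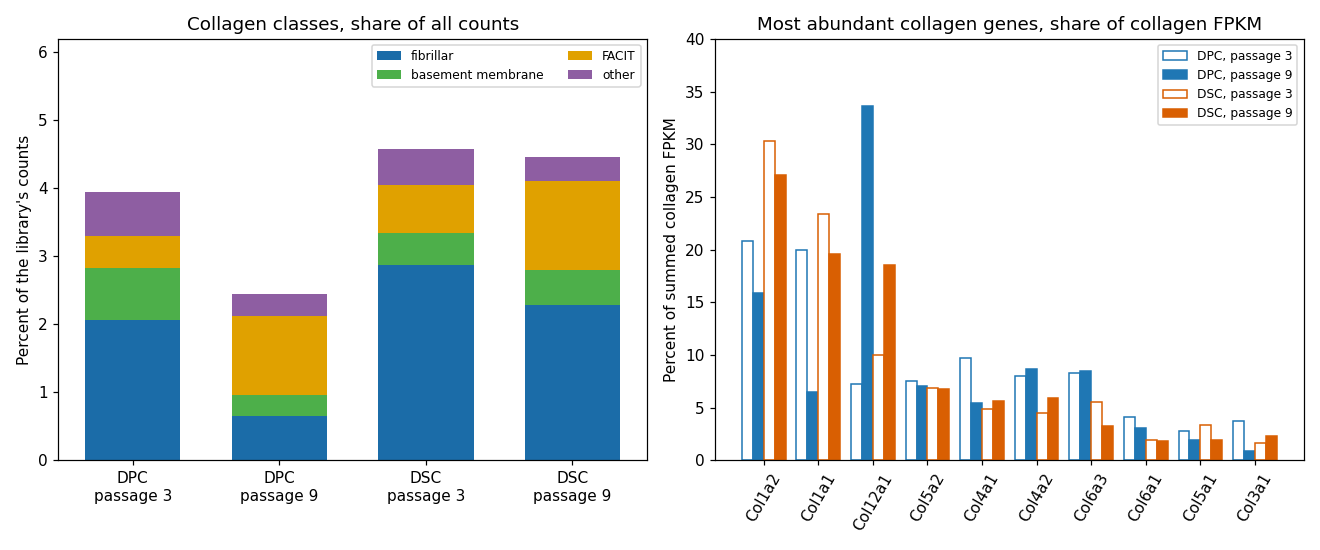
Left, percent of each library's counts taken by the collagen classes, as stacked bars for the 4 libraries. Right, percent of the summed collagen FPKM of each library taken by the 10 collagen genes with the highest mean FPKM, with open bars for passage 3 and filled bars for passage 9. The bar of high-passage DPCs is the shortest on the left at 2.444%, and Col12a1 takes 33.6% of collagen FPKM in that library on the right.

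Levels of different genes were compared by the deposited FPKM (fragments scaled for transcript length and for the mapped fragments of a library). The highest mean over the libraries was that of Col1a2 at 1341 FPKM, followed by Col1a1 at 1029 and Col12a1 at 804. Next came Col5a2, Col4a1, Col4a2 and Col6a3, with means between 324 and 379 FPKM. Col6a1, Col5a1 and Col3a1 had 143, 142 and 124 FPKM. At the other end, Col9a1 and Col9a2, chains of the cartilage collagen IX, were at 0 counts throughout, which in no library allows more than 0.0836 CPM. Col6a5, Col13a1, Col17a1, Col19a1, Col22a1 and Col26a1 had between 0 and 17 counts in a library.

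**Figure D2:**
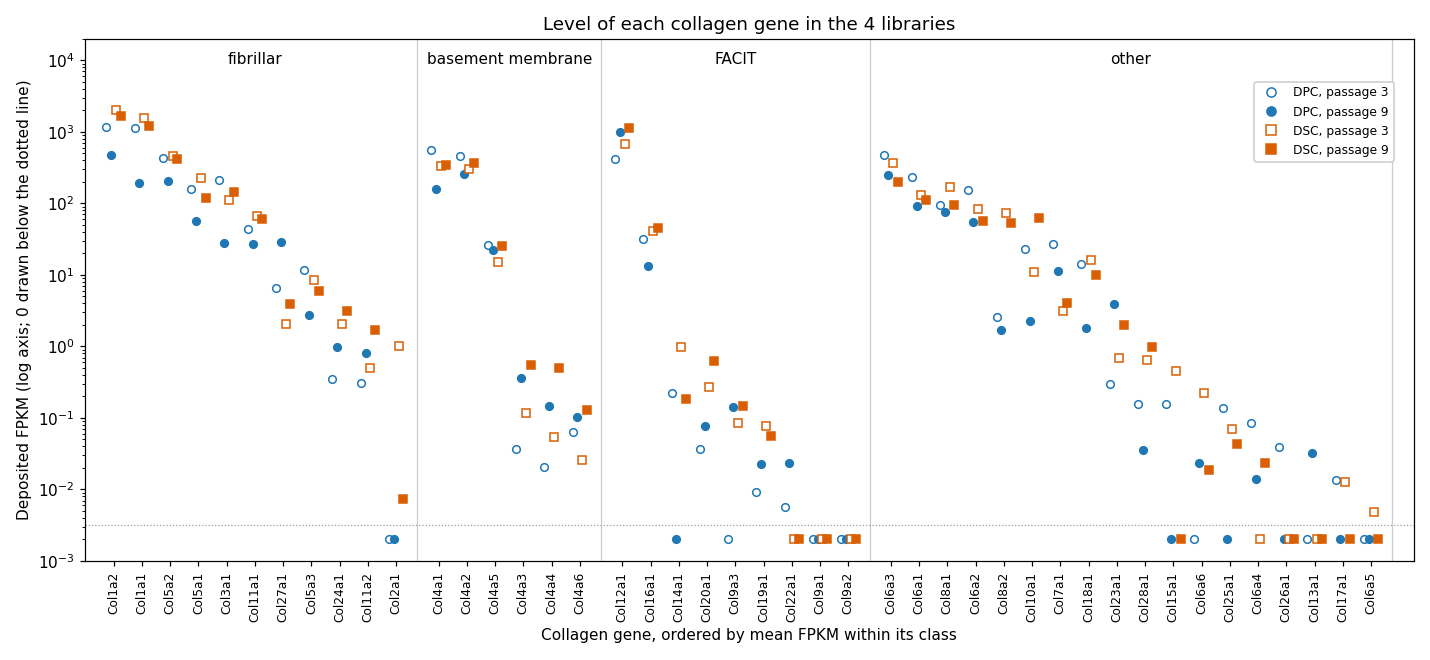
Deposited FPKM (log axis) of all 44 collagen genes, grouped by class and ordered by mean FPKM, with circles for DPCs, squares for DSCs, open symbols for passage 3 and filled symbols for passage 9. Symbols below the dotted line are values of 0. High-passage DPCs have the lowest level of Col1a1 (190 FPKM) and Col3a1 (27.5), and both DPC libraries lie far below the DSC libraries for Col8a2.

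Fold changes between libraries were differences in TMM-scaled log2 CPM, with 2 as the prior count, and were computed for the 36 collagen genes whose raw count averaged 10 or more over the 4 libraries, among 16734 such genes in all. A fitted difference of at least 2 on the log2 scale (4-fold) was called. Where a library was at 0 counts the fitted value is no bound, and 4 calls had a lower bound under 4-fold, namely Col6a6 for passage in DPCs, Col6a4 for passage in DSCs, Col9a3 for cell type at passage 3 and Col25a1 for cell type at passage 9. The other 8 collagen genes were under the minimum. A gene that passed the minimum only through a single high library had to differ, so counts are also given for the 25 collagen genes with a mean count of at least 100.

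In DPCs, most collagen genes were lower at passage 9. Of 36, 7 were called lower, where 4.36% of all tested genes were, and 5 were called higher, where 5.58% of all tested genes were. With bounds in place of fitted values for libraries at 0, these were 7 and 4, where 4.19% and 5.47% were called. The median difference was -1.01 on the log2 scale, with 24 of 36 genes below 0, where 48.5% of all tested genes were, and the median of all tested genes was 0.03. Among the 25 more abundant genes, 19 were below 0, 4 were called lower, where 3.09% of all genes over that minimum were, and 2 higher, where 3.1% were. The genes called lower were Col1a1, Col3a1, Col10a1, Col14a1, Col15a1, Col18a1 and Col25a1, and those called higher were Col4a3, Col4a4, Col6a6, Col9a3 and Col23a1.

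In DSCs, collagen genes lay about evenly on either side of 0. At passage 9, 5 of 36 were called higher, where 2.67% of all tested genes were, and 4 were called lower, where 1.16% were. With bounds for libraries at 0, these were 4 and 4, where 2.5% and 1.12% were called. The median difference was 0.11 on the log2 scale and 17 of 36 genes were below 0. Col4a3, Col4a4, Col4a6, Col6a4 and Col10a1 were called higher, and Col2a1, Col6a6, Col14a1 and Col15a1 were called lower. Among the 25 more abundant genes, 2 were called higher and 0 lower, where 1.21% and 0.484% of all genes over that minimum were. In both cell types, Col4a3 and Col4a4 were called higher and Col14a1 and Col15a1 lower with passage. Whether the responses of DPCs and DSCs differ was not tested, since each rests on a single pair of libraries.

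**Figure D3:**
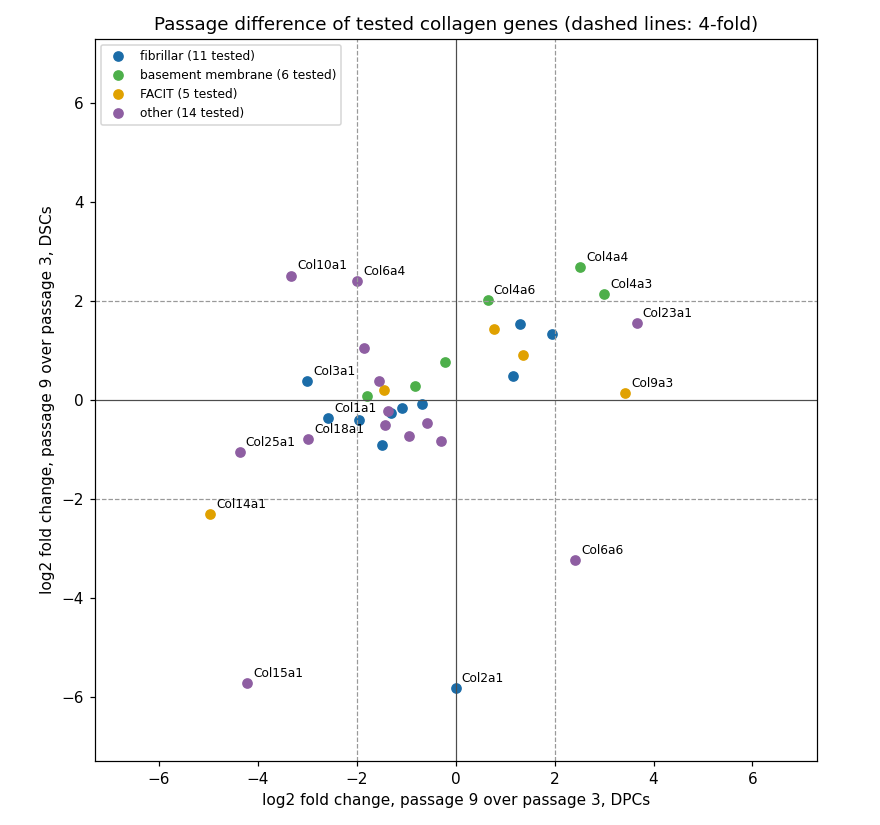
Log2 fold change of passage 9 over passage 3 in DPCs (horizontal) and in DSCs (vertical) for the 36 tested collagen genes, with 1 point per gene coloured by class and genes past 4-fold (dashed lines) named. Of these genes, 24 lie left of 0, and Col10a1 lies past 4-fold in both cell types with opposite signs.

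DPCs had lower levels than DSCs for many collagen genes, and more so at passage 9. At passage 3, 3 of 36 were called higher in DPCs, where 1.52% of all tested genes were, and 6 were called lower, where 2.77% were. Of the 6 type IV genes 4 were above 0, while the median over all 36 was -0.50 on the log2 scale. Of all 36, 22 were below 0, where 49.8% of all tested genes were. At passage 9, 1 was called higher, where 2.5% of all tested genes were, and 11 were called lower, where 3.91% were. With bounds for libraries at 0, those lower were 5 at passage 3 and 10 at passage 9, where 2.53% and 3.73% of all tested genes were called, and those higher stayed at 3 and 1, where 1.39% and 2.48% were. At passage 9 the median was -0.999, or -0.92 with bounds, with 29 of 36 genes below 0, against -0.01 over all tested genes, of which 50.9% were below 0. Of the 25 more abundant genes, 7 were called lower in DPCs at passage 9 and 2 at passage 3, where 2.4% and 1.62% of all genes over that minimum were. Called higher were 1 at passage 9 and 2 at passage 3, where 1.43% and 0.845% were. This comparison and that of passage in DPCs share the library of high-passage DPCs. Over the 4 comparisons there were 42 called differences, and 20 of them were also past 4-fold on the deposited FPKM with 0.1 added, a scale that understates the change of scarce genes. These included all calls of Col1a1, Col3a1, Col7a1, Col8a2, Col10a1, Col18a1 and Col23a1. All calls of Col4a3, Col4a4, Col4a6, Col6a4, Col6a6, Col9a3, Col14a1, Col16a1 and Col25a1 were lost on that scale, as were that of Col15a1 in DPCs, of Col20a1 and Col27a1 at passage 3 and of Col24a1 at passage 9. With passage in DPCs, Col5a3 at -2.06 and Col27a1 at 2.09 on the log2 scale passed 4-fold on FPKM and not on the counts.

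**Figure D4:**
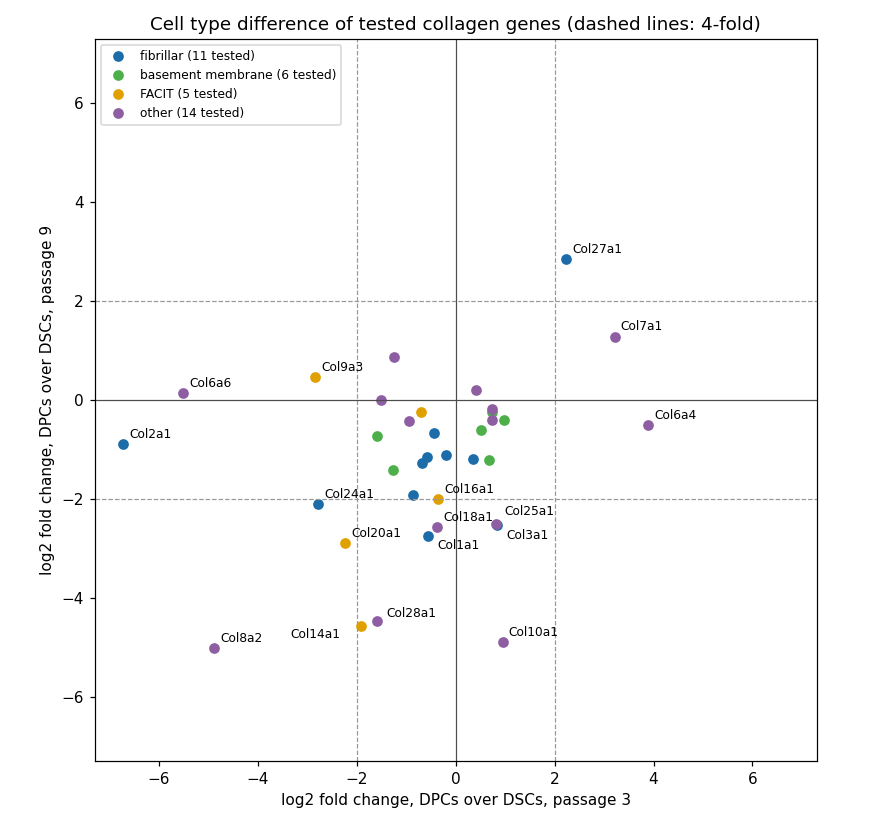
Log2 fold change of DPCs over DSCs at passage 3 (horizontal) and at passage 9 (vertical) for the 36 tested collagen genes, with 1 point per gene coloured by class and genes past 4-fold (dashed lines) named. Most points lie below 0 on the vertical axis (29 of 36), and Col8a2 lies past -4 on both axes.

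The fibrillar genes of types I and III were abundant in 3 libraries and much lower in high-passage DPCs. Col1a1 (ENSMUSG00000001506, chromosome 11, 94936224 to 94953042 on GRCm38), the alpha 1 chain of type I, the main collagen of dermis, had 1140 FPKM at passage 3 and 190 at passage 9 in DPCs, and 1583 and 1201 in DSCs. It was 5.95-fold lower at passage 9 in DPCs (log2 -2.57, interval -2.59 to -2.56) and 1.29-fold lower in DSCs. All intervals given with fold changes are exact 95% Clopper-Pearson intervals of the share of reads between 2 libraries, so they cover counting error only and compare libraries, not conditions. High-passage DPCs were thus set apart from the other 3 libraries for this gene.

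Col1a2 (ENSMUSG00000029661, chromosome 6, 4504814 to 4541544), the alpha 2 chain of type I, had 1184, 469, 2049 and 1661 FPKM in DPCs at passage 3, DPCs at passage 9, DSCs at passage 3 and DSCs at passage 9. The values of the genes that follow are in the same order. Its difference with passage in DPCs, -1.31 (-1.32 to -1.30) on the log2 scale, was not past 4-fold. The FPKM ratio of Col1a1 to Col1a2 was 0.963 in low-passage DPCs and 0.405 (0.40 to 0.41) in high-passage DPCs, against 0.773 and 0.723 in DSCs. The partner chains of type I therefore differed unequally with passage in DPCs.

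Col3a1 (ENSMUSG00000026043, chromosome 1, 45311538 to 45349706), the single chain of type III, which forms thin fibres together with type I, had 213, 27.5, 113 and 144 FPKM. It was 8.01-fold lower at passage 9 in DPCs (log2 -3.002, -3.04 to -2.96) and 1.30-fold higher in DSCs (0.38, 0.36 to 0.40). At passage 3 it was 1.79-fold higher in DPCs than in DSCs, and at passage 9 it was 5.81-fold lower. The order of the cell types was thus opposite at the 2 passages. Another annotated gene shares 1.44% of its exonic bases on the same strand.

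The chains of type V, which nucleate type I fibrils and limit their width, were lower at passage 9 in DPCs without passing 4-fold. Col5a1 had 162, 57.3, 228 and 119 FPKM, and was 2.81-fold lower at passage 9 in DPCs and 1.88-fold lower in DSCs. Col5a2 had 430, 207, 463 and 414 FPKM and Col5a3 had 11.8, 2.77, 8.55 and 6.05 FPKM. Col5a3, at 3.86-fold lower in DPCs, lay just short of 4-fold. Col5a2 lies 24614 bases from Col3a1, with the ends of both genes facing each other, and it was 2.12-fold lower in DPCs where Col3a1 was 8.01-fold lower.

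Among the minor fibrillar types, Col27a1 was the only collagen gene called higher in DPCs at both passages. Col27a1 (ENSMUSG00000045672, chromosome 4, 63214004 to 63334991), known from cartilage, had 6.61, 28.5, 2.03 and 3.90 FPKM. It was 4.73-fold higher in DPCs at passage 3 (log2 2.24, 2.09 to 2.40) and 7.24-fold at passage 9 (2.85, 2.77 to 2.94). Against the trend of the class it was also 3.86-fold higher at passage 9 in DPCs, just short of the threshold, and 2.52-fold higher in DSCs. Col11a2 and Col24a1 were likewise higher at passage 9, 2.52-fold and 2.26-fold in DPCs and 2.95-fold and 1.40-fold in DSCs. Col24a1 (ENSMUSG00000028197, chromosome 3, 145292472 to 145552011), a fibrillar collagen of developing bone, went the other way between the cell types, with 0.355, 0.986, 2.09 and 3.13 FPKM. It was 7.04-fold lower in DPCs at passage 3 (-2.79, -3.16 to -2.48) and 4.35-fold at passage 9 (-2.11, -2.35 to -1.89). The chains of type XI differed less than 3-fold, with Col11a1 between 26.8 and 65.7 FPKM and Col11a2 between 0.311 and 1.69 FPKM.

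Col2a1 (ENSMUSG00000022483, chromosome 15, 97975602 to 98004695), the fibrillar collagen of cartilage, was found almost entirely in low-passage DSCs. It had 0, 0, 203 and 2 counts. It was at least 65.7-fold lower in DPCs than in DSCs at passage 3. Within DSCs it was 122-fold lower at passage 9 by the ratio of CPM, which rests on 2 counts. The log2 interval was -9.99 to -5.06, and the prior count brought the difference to -5.83. Other cartilage genes moved with it only in part. The 7 chondrocyte markers, 5 of them tested, summed to 8.80 CPM at passage 3 and 7.52 at passage 9 in DPCs, and to 125 and 122 in DSCs. Acan, the core protein of aggrecan, had 108, 22, 1300 and 79 counts, while Comp had 66, 116, 3062 and 4613, Hapln1 had 23, 2, 77 and 554, and Matn1 was at 0 in all libraries. The part of cartilage-like cells in the level of Col2a1 was not tested.

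The basement membrane genes split into abundant and scarce chains, and of the scarce ones Col4a3 and Col4a4 were higher at passage 9 in both cell types. The 6 chains lie in 3 head-to-head pairs in the genome. Because Col4a3 and Col4a4 moved together, the whole stretch between their starts is shown, 71 bases at chr1:82586850-82586920 on the strand of Col4a4 (RefSeq, GRCm38.p6). It was searched on both strands for the TATA box, spelled TATAAA, for the CCAAT box by those letters, and for the GC box, spelled GGGCGG. None of the motifs was found there, and none of them contains another. Col4a1 and Col4a2 start on opposite strands with 22 shared bases at chr8:11312805-11312826, shown on the strand of Col4a2 with a match to the GC box in capitals.
Col4a4-Col4a3: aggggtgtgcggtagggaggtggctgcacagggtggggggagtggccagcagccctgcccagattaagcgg
Col4a1-Col4a2: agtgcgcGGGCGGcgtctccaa

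Col4a1 (ENSMUSG00000031502, chromosome 8, 11198423 to 11312826) and Col4a2 (ENSMUSG00000031503, chromosome 8, 11312805 to 11449287) encode the chains of the common type IV network. Col4a1 had 557, 160, 331 and 343 FPKM, and Col4a2 had 455, 257, 306 and 362 FPKM. In DPCs Col4a1 was 3.46-fold lower at passage 9 (log2 -1.79, -1.81 to -1.78) and Col4a2 1.78-fold lower (-0.83, -0.84 to -0.82). In DSCs Col4a1 was 1.06-fold and Col4a2 1.21-fold higher at passage 9. The FPKM ratio of Col4a1 to Col4a2 was 1.22, 0.624, 1.08 and 0.947, so that high-passage DPCs stood apart here as they did for type I. Their exons overlap each other and other genes on the opposite strand over less than 1% of their bases.

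Col4a3 (ENSMUSG00000079465, chromosome 1, 82586921 to 82722059) and Col4a4 (ENSMUSG00000067158, chromosome 1, 82448423 to 82586849), chains of the network found in the glomerular basement membrane, were scarce throughout. Col4a3 had 13, 114, 44 and 241 counts, and was 8.99-fold higher at passage 9 in DPCs (log2 2.996, 2.34 to 4.12) and 4.56-fold in DSCs (2.14, 1.72 to 2.69). Col4a4 had 9, 59, 25 and 205 counts, and was 6.72-fold higher in DPCs (2.52, 1.73 to 3.95) and 6.82-fold in DSCs (2.68, 2.17 to 3.43). Both high-passage libraries lay above both low-passage libraries for each gene. The levels were at most 0.543 FPKM, and 5.65% of the exonic bases of Col4a3 are shared with a gene on the opposite strand. On the deposited FPKM with 0.1 added, none of these 4 differences reached 4-fold, and their values were between 1.04 and 1.97 on the log2 scale.

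The chains of the X-linked pair differed in level. Col4a5 (ENSMUSG00000031274) had 26.6, 22.4, 15.2 and 25.1 FPKM and differed by less than 2-fold in every comparison. Col4a6 (ENSMUSG00000031273, chromosome X, 141165403 to 141474076), whose start is 1308 bases from that of Col4a5, had 17, 27, 8 and 46 counts. It was 4.79-fold higher at passage 9 in DSCs (log2 2.02, 1.16 to 3.55), and fell short of the threshold at 1.98 when libraries were scaled by total counts. In DPCs its interval included 0.

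Col12a1 dominated the FACIT class and was higher at passage 9 in both cell types. Col12a1 (ENSMUSG00000032332, chromosome 9, 79598991 to 79718831), which decorates type I fibrils in tissues under tension, had 416, 991, 677 and 1132 FPKM. It was 2.57-fold higher at passage 9 in DPCs (log2 1.36, 1.35 to 1.37) and 1.88-fold in DSCs (0.91, 0.91 to 0.92), under the threshold in both. Its FPKM relative to Col1a1 was 0.365 in low-passage DPCs and 5.21 (5.16 to 5.26) in high-passage DPCs, against 0.428 and 0.942 in DSCs. It took 7.3%, 33.6%, 10.0% and 18.5% of the summed collagen FPKM. In high-passage DPCs it was thus the most abundant collagen transcript, ahead of Col1a2.

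The other FACIT genes were less abundant. Col14a1 (ENSMUSG00000022371, chromosome 15, 55307750 to 55520803), a fibril-associated collagen of dermis and tendon, had 57, 0, 227 and 53 counts. It was at least 18.5-fold lower at passage 9 in DPCs and 5.15-fold lower in DSCs (log2 -2.31, -2.82 to -1.93), and at least 13.9-fold lower in DPCs than in DSCs at passage 9. Here, below and for Col2a1 above, the bound of a gene at 0 counts uses a floor of 3 counts, and it is halved if both mates of a read pair were counted. Col16a1 (ENSMUSG00000040690, chromosome 4, 130047840 to 130099283) had 31.8, 13.3, 41.0 and 45.6 FPKM. Its difference between DPCs and DSCs at passage 9, 4.01-fold, lay at the threshold and was not called under the other scalings.

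Col20a1 and Col9a3 rest on few reads. Col20a1 (ENSMUSG00000016356, chromosome 2, 180986535 to 181017540 in the deposited table, a position that differs from GENCODE M21) had 7, 13, 41 and 138 counts. It was 5.68-fold lower in DPCs at passage 3 (log2 -2.23, -3.91 to -1.34) and 8.36-fold lower at passage 9 (-2.90, -4.01 to -2.24). Col9a3 (ENSMUSG00000027570, chromosome 2, 180597790 to 180622189), the only chain of type IX with reads, had 0, 18, 12 and 16 counts, at least 6.15-fold higher at passage 9 in DPCs and at least 3.88-fold lower in DPCs than in DSCs at passage 3. Only low-passage DPCs stood apart for Col9a3, and 6.07% of its exonic bases are shared with Tcfl5 on the opposite strand.

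The main chains of type VI, which form beaded microfilaments around cells, were lower at passage 9 in DPCs, with the smallest difference for Col6a3. Col6a1 had 236, 91.3, 133 and 112 FPKM, Col6a2 had 153, 55.1, 84.2 and 57.3, and Col6a3 had 475, 250, 372 and 198. The differences with passage were 2.57-fold, 2.68-fold and 1.91-fold lower in DPCs, and 1.17-fold, 1.42-fold and 1.67-fold lower in DSCs. None was called. The ratio of Col6a1 to Col6a2, neighbours 85161 bases apart on chromosome 10, stayed between 1.55 and 1.95 in all libraries. That of Col6a3 to Col6a1 was 2.01 at passage 3 and 2.74 at passage 9 in DPCs, and 2.8 and 1.77 in DSCs.

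The alternative type VI chains Col6a4, Col6a5 and Col6a6, which lie in a row on chromosome 9, were scarce and varied between libraries. Col6a4 (ENSMUSG00000032572, chromosome 9, 105989454 to 106096783) had 26, 5, 0 and 10 counts. It was at least 8.93-fold higher in DPCs than in DSCs at passage 3 and at least 2.77-fold higher at passage 9 than at passage 3 in DSCs. Its difference with passage in DPCs, log2 -1.99 (-4.08 to -0.94), fell just short of the threshold. Col6a6 (ENSMUSG00000043719, chromosome 9, 105687809 to 105828160) was found mostly in low-passage DSCs, with 0, 8, 87 and 9 counts. It was at least 28.1-fold lower in DPCs than in DSCs at passage 3, 11.6-fold lower at passage 9 in DSCs (-3.24, -4.71 to -2.55) and at least 2.74-fold higher at passage 9 in DPCs. With counts halved, as counting of both mates would require, the intervals of the passage differences of Col6a4 in DSCs and of Col6a6 in DPCs included 0.

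Col7a1 was highest in low-passage DPCs. Col7a1 (ENSMUSG00000025650, chromosome 9, 108953586 to 108984875), which forms the anchoring fibrils that tie basement membrane to dermis, had 27.1, 11.4, 3.16 and 4.04 FPKM. It was 9.30-fold higher in DPCs than in DSCs at passage 3 (log2 3.21, 3.11 to 3.32) and 2.43-fold at passage 9 (1.28, 1.19 to 1.38). With passage it was 2.93-fold lower in DPCs and 1.31-fold higher in DSCs. Both DPC libraries lay above both DSC libraries.

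Col8a2 and Col10a1 encode short-chain network collagens and had the largest differences between cell types among the abundant genes. For this reason the 100 bases before their starts are shown, with matches to the same motifs on either strand in capitals (RefSeq, GRCm38.p6). Col8a2 is at chr4:126286693-126286792 and Col10a1 at chr10:34389881-34389980, both on the plus strand. The stretch of Col10a1 holds a TATA box with its first base 32 bases before the start, and that of Col8a2 holds the GC box 1 time on the same strand and 3 times on the opposite strand, where 2 of the matches overlap. In windows of 300 bases around gene starts, the TATA box was found in 13.6% of 32851 RefSeq promoters, the CCAAT box in 37.4% and the GC box in 35.7%, on either strand. Of 38 such windows for 35 of the 44 collagen genes, 5 held the TATA box, 13 the CCAAT box and 23 the GC box. A match is a run of letters and not a binding site.
Col8a2: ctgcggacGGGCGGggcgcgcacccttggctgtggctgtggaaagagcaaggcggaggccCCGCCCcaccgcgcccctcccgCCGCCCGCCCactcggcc
Col10a1: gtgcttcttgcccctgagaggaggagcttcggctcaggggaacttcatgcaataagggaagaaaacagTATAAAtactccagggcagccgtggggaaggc

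Col8a2 (ENSMUSG00000056174, chromosome 4, 126286793 to 126314330), the alpha 2 chain of type VIII, had 2.60, 1.71, 73.4 and 52.4 FPKM. It was 29.7-fold lower in DPCs than in DSCs at passage 3 (log2 -4.89, -5.03 to -4.76) and 32.6-fold lower at passage 9 (-5.02, -5.20 to -4.86). With passage it differed by less than 1.51-fold in either cell type. Its partner Col8a1 (ENSMUSG00000068196), the alpha 1 chain, had 95.1, 76.4, 172 and 94.97 FPKM. The FPKM ratio of Col8a1 to Col8a2 was therefore 36.6 and 44.7 in DPCs and 2.34 and 1.81 in DSCs, so both DPC libraries held the alpha 1 chain nearly alone.

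Col10a1 (ENSMUSG00000039462, chromosome 10, 34389981 to 34397085), best known from hypertrophic cartilage, had 22.9, 2.24, 11.1 and 62.4 FPKM. It was 10.1-fold lower at passage 9 in DPCs (log2 -3.33, -3.52 to -3.16) and 5.72-fold higher in DSCs (2.51, 2.44 to 2.59). At passage 3 it was 1.93-fold higher in DPCs than in DSCs and at passage 9 it was 29.9-fold lower (-4.89, -5.08 to -4.73). It was the only collagen gene with a mean count of at least 100 that was called with opposite signs in DPCs and DSCs. Its exons share 0.575% of their bases with Nt5dc1 on the opposite strand.

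The multiplexins, collagens of basement membrane zones that carry endostatin-like ends, were both lower at passage 9. Col18a1 (ENSMUSG00000001435, chromosome 10, 77052178 to 77166548) had 14.4, 1.81, 16.2 and 10.1 FPKM. It was 7.92-fold lower at passage 9 in DPCs (log2 -2.98, -3.16 to -2.82) and 1.72-fold in DSCs, and 5.97-fold lower in DPCs than in DSCs at passage 9. Col15a1 (ENSMUSG00000028339), which is also made around vessels and nerves, had 33, 0, 101 and 0 counts. It thus had reads at low passage in both cell types and at high passage in neither.

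The summed markers of Schwann and immune cells, like Col14a1 and Col15a1, were lower at passage 9 in both cell types. Those of endothelial cells were lower only in DSCs. The 9 Schwann markers summed to 15.8, 6.35, 38.3 and 10.9 CPM. Of the 8 tested, 6 were called lower at passage 9 in DPCs, where 4.36% of all tested genes were, and 5 in DSCs, where 1.16% were. Of all tested genes, 5.58% were called higher in DPCs, and these shares also serve for the endothelial and immune lists. Sox10, Cdh19, Ngfr and Foxd3 were at 0 in both high-passage libraries. The 6 endothelial markers summed to 2.55, 5.52, 8.04 and 1.30 CPM. Of the 4 tested, 2 were called lower and 1 higher, Vwf, at passage 9 in DPCs, and 3 were called lower in DSCs, with Cdh5 at 0 in both high-passage libraries. The 8 immune markers summed to 117.5, 64.7, 164.8 and 93.0 CPM. Of the 6 tested, 2 were called lower at passage 9 in DPCs, Adgre1 and Itgam, and 1 in DSCs, Ptprc, while Cd3e was at 0 throughout. The part of such cells in the levels of Col14a1 and Col15a1 was not tested.

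Transmembrane collagens differed in opposite directions. Col23a1 (ENSMUSG00000063564, chromosome 11, 51289920 to 51583918) had 0.301, 3.88, 0.686 and 2.01 FPKM, and was 12.95-fold higher at passage 9 in DPCs (log2 3.66, 3.34 to 4.07) and 2.94-fold in DSCs (1.55, 1.31 to 1.81). Both high-passage libraries lay above both low-passage libraries. Col25a1 (ENSMUSG00000058897, chromosome 3, 130131501 to 130599877), a collagen of neurons and muscle, had 37, 0, 21 and 11 counts. It was at least 12.03-fold lower at passage 9 in DPCs, and at least 2.89-fold lower in DPCs than in DSCs at passage 9, where the interval included 0 once counts were halved.

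Col28a1 (ENSMUSG00000068794, chromosome 6, 7997808 to 8192617), known from peripheral nerve, had 27, 6, 88 and 220 counts. It was 28.9-fold lower in DPCs than in DSCs at passage 9 (log2 -4.48, -6.31 to -3.71) and 3.16-fold lower at passage 3. With passage it was 4.39-fold lower in DPCs by the ratio of CPM, which the prior count brought to -1.84 on the log2 scale and so under the threshold, and 2.08-fold higher in DSCs. Both DSC libraries lay above both DPC libraries. Schwann markers are given above, and the part of such cells in the level of Col28a1 was not tested.

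To ask whether a difference was larger than the disagreement between the pairs of libraries, a model with additive terms for passage and cell type was fitted over all 16734 genes. Its residual spread, with 1 degree of freedom, is the disagreement between the responses of DPCs and DSCs, and no replicate culture enters it. edgeR's quasi-likelihood test with Benjamini-Hochberg adjustment called 0 collagen genes for passage and 0 for cell type at an adjusted p under 0.05, where 0.0% of all tested genes were called for either term. At an unadjusted p under 0.05 there were 12 collagen genes for passage, where 16.9% of all tested genes passed, and 12 for cell type, where 8.25% passed. The smallest adjusted p among the collagen genes was 0.188 for passage and 0.0683 for cell type by edgeR, the latter for Col8a2 with a log2 difference of -4.96. With the same terms, the Wald test of DESeq2 called 10 collagen genes for passage, where 5.71% of all tested genes were called. These were Col1a1, Col4a3, Col4a4, Col5a1, Col12a1, Col14a1, Col15a1, Col18a1, Col23a1 and Col27a1. It called 8 for cell type, where 2.96% were called, namely Col1a1, Col1a2, Col7a1, Col8a2, Col14a1, Col24a1, Col27a1 and Col28a1.

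Genes that modify, bind or degrade collagen were read out as fixed lists. Of 30 genes for collagen modification, secretion, trimming and cross-linking, 2 were called higher and 3 lower at passage 9 in DPCs, with a median of -0.02 on the log2 scale, and 0 were called in DSCs. Between the cell types, 0 were called higher and 2 lower in DPCs at passage 3, and 2 higher and 3 lower at passage 9. Of all tested genes, 5.58% were called higher and 4.36% lower with passage in DPCs, 2.67% and 1.16% in DSCs, and 1.52% and 2.77% at passage 3 and 2.5% and 3.91% at passage 9 between the cell types, which are also the shares to read the receptor and degradation lists against. None was called in the same direction with passage in both cell types. The genes called in DPCs, named after their values were seen, were P3h2, a prolyl 3-hydroxylase (391 and 9021 counts at passages 3 and 9), and Adamts3, a procollagen N-proteinase (0 and 259 counts), which were higher, and Loxl2, a cross-linking lysyl oxidase (29922 and 2208), Pcolce2, an enhancer of C-propeptide removal (294 and 28), and Tll1, a C-proteinase (720 and 166), which were lower.

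Of 10 collagen receptors, 9 were tested. At passage 9, 1 was called higher in DPCs and 0 in DSCs, and 0 were called lower in either. At passages 3 and 9, 1 and 2 were called lower in DPCs than in DSCs and 0 higher. Itga2, the collagen-binding integrin alpha 2 chain, named after its values were seen, was called lower in DPCs than in DSCs at both passages, with 114, 28, 1967 and 1422 counts. Of 12 genes for degradation and its inhibitors, 11 were tested. At passage 9, 0 were called higher and 1 lower in DPCs, and 0 were called in DSCs. Between the cell types, 2 were called higher and 1 lower in DPCs at passage 3, and 0 higher and 1 lower at passage 9. Mmp13, a collagenase, also named after its values were seen, was the gene called lower in DPCs at both passages, with 33, 26, 192 and 420 counts.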

How the data were processed

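RNA from DPCs and DSCs at passages 3 and 9 was sequenced as 1 library per group. The authors deposited a gene table of raw counts that covers the 4 libraries, and FPKM tables for each library, which they normalized for transcript length and depth. The submitters' processing notes name Bowtie 0.12.2 and the builds mm8 and mm9. Of the 44 collagen genes, however, 43 have the position given by GENCODE M21 on GRCm38. The counting program and its use of strand are not given in the sources used here, so that overlapping genes are uncertain (13 collagen genes share exonic bases with another gene, 3 of them on the same strand). The labels and the study's methods name different library kits. Even counts were in excess (1339 genes at 2 counts and 583 at 3 in low-passage DPCs), as when both mates are counted. Intervals were therefore also computed from halved counts.

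Libraries were scaled with TMM (edgeR 4.0.16, limma 3.58.1, R 4.3.3). Genes whose raw count averaged 10 or more were tested, and 4-fold was the calling threshold, after the study. The additive model used edgeR, or DESeq2 1.42.0 as the alternative. The members, classes and lists were chosen with earlier results of these data known. Named with their values were collagen genes called in any comparison, the 10 with the highest mean FPKM and the chains of types I, III, IV, V and VI over the minimum. Genes of the related lists were to be named only if called in the same direction in both cell types. Total counts, DESeq2 size factors, upper-quartile scaling, prior counts of 0.5 and 10, FPKM with a pseudocount of 0.1, no minimum and a minimum of 100 were the alternatives. A count of 0 was read as up to 3 counts, or 0.0815, 0.0836, 0.0791 and 0.0658 CPM in DPCs at passage 3, DPCs at passage 9, DSCs at passage 3 and DSCs at passage 9. Per-sample precision is limited to counting error, since there are no replicates.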

Additional observations from a re-analysis of the deposited data

Results flagged for a closer look

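The passage difference had opposite signs in DPCs and DSCs for 10 of the 36 tested collagen genes, which is 27.8%, and for 29.5% of all tested genes. For 5 of them the log2 differences were at least 2 apart with counting intervals on opposite sides of 0, and these are listed here. They are 13.9% of the tested collagen genes, and 2.21% of all tested genes met the same rule. None of these differences between cell types was tested, since each group had 1 library.

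Col10a1 had -3.33 in DPCs and 2.51 in DSCs, a difference of -5.84 on the log2 scale. Col3a1 had -3.002 and 0.38, a difference of -3.38. Col28a1 had -1.84 and 1.04, a difference of -2.89, on 6 to 220 counts. Col6a4 had -1.99 and 2.40, a difference of -4.39, on 0 to 26 counts. Col6a6 had 2.42 and -3.24, a difference of 5.66, on 0 to 87 counts. For Col6a4 and Col6a6 an interval included 0 with halved counts, and both differences include a fitted value for a library at 0.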

How the results depend on the processing

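Of 42 called differences, 40 or more kept their call under total counts, DESeq2 size factors, upper-quartile scaling and a prior count of 0.5, 31 under a prior count of 10 and 20 under deposited FPKM with 0.1 added, and none changed sign. Those 20 kept their call under all 6 of these settings. The counts of collagen genes in the order passage in DPCs, passage in DSCs, cell type at passage 3 and cell type at passage 9 moved by over 1.5 times as follows. With a prior count of 10, those higher were 2 in DPCs and 2 in DSCs with passage, where 3.79% and 1.4% of all tested genes were. With a minimum of 100, those higher with passage were 2 and 2, where 3.1% and 1.21% of all genes over it were. Those lower were 4, 0, 2 and 7 over the 4 comparisons, where 3.09%, 0.484%, 1.62% and 2.4% were. With FPKM, those higher were 2, 1 and 1 in the first 3 comparisons, where 3.88%, 1.52% and 0.974% of all tested genes were. Those lower were 2, 3 and 7 in the last 3, where 0.574%, 1.37% and 2.44% were. With the bound for libraries at 0, an alternative chosen after seeing the data, no count moved by over 1.5 times. Without a minimum, 2 of 42 were higher in DPCs than in DSCs at passage 9, where 3.05% of all genes with a count were. The prior count, the pseudocount and the minimum act by construction on scarce genes. DESeq2 called 10 collagen genes for passage and 8 for cell type in the additive model (5.71% and 2.96% of all tested genes), where edgeR called 0, or 1 for cell type (Col8a2) with DESeq2 size factors or a minimum of 100, and the cause was not tested.

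The share of collagen genes was 1.306%, 0.683%, 1.618% and 1.46% of summed FPKM in DPCs at passage 3, DPCs at passage 9, DSCs at passage 3 and DSCs at passage 9, and 4.127%, 2.653%, 4.816% and 4.726% of the counts without mitochondrial genes. High-passage DPCs had the lowest share in each case. Of 132 intervals that excluded 0, 126 still did with halved counts. No paired analysis was possible because no group has replicate numbers to pair, and cell type is the only block, in the additive model. Depth limits statements on genes at a few counts, and the single library per group limits all of them.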
